A study of Mus musculus with 6 samples.

Results

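Genes that encode the enzymes of purine and pyrimidine synthesis and salvage were read in spleen B lymphocytes, purified from 8-week-old mice of the inbred strain C57BL/6. The group of genes was set by name, as 38 symbols of de novo, salvage and deoxynucleotide steps, and the probe that stands for each gene was chosen by intensity, as the one with the highest mean log2 value over the 6 arrays. A probe had to carry that symbol alone in the platform annotation. This gave 36 genes of the 19057 with such a probe. Impdh2 and Nme6 were not analysed here. All 36 were above the array median on all 6 arrays, so none was lost to the filter on dim probes, which left 11843 genes tested in all. The mean log2 intensity that chose the probes lay between 6.75 and 13.83, and the difference between groups played no part in that choice. The symbols themselves were chosen with earlier results of these data known, so their counts below describe these genes and are no independent evidence for a pathway.

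There were 3 samples labelled anti-IgM and 3 labelled untreated. The anti-IgM samples had been given a goat F(ab')2 anti-mouse IgM at 2.5 µg/ml for 3 h; such fragments bind and cluster the antigen receptor of B cells. The protocols shared by all samples list IL-4 (5 ng/ml) and CD40L (200 ng/ml) as well, a cytokine and a T cell surface signal for B cells. They do not state whether any group, the untreated one included, was given either. No label says whether the replicates came from separate mice or cultures, and p-values measure only the spread between these samples.

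Cells build purines stepwise on a phosphorylated ribose, PRPP, until the first complete nucleotide, IMP, from which AMP and GMP branch off. Pyrimidines are built as a free ring that is then joined to PRPP to give UMP, the source of CTP. Salvage enzymes return bases and nucleosides to the nucleotide pool, and ribonucleotide reductase with thymidylate synthase turns ribonucleotides into the precursors of DNA. Resting lymphocytes lean on salvage, and lymphocytes that enter growth depend on the de novo routes, which is why inhibitors of these enzymes are used to suppress immune responses.

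The array values are normalized fluorescence intensities, given below as log2, and a change is the anti-IgM mean minus the untreated mean on that scale. The lowest intensity on any array was 34.4, so fold changes of dim genes are understated on this scale. The number of arrays limits the precision, and the median standard error (SE) of a change was 0.15. The arrays numbered 1 differed from those numbered 2 and 3 in both groups, along a second principal component with 8.52% of the variance. Xist, an X-inactivation RNA of female cells, read log2 5.72 on both replicate 1 arrays and between 9.63 and 10.99 on the other 4. The Y-linked gene Eif2s3y read 9.01 on the anti-IgM and 10.03 on the untreated replicate 1 array, and between 5.60 and 5.82 on the other 4. RNA of male cells was thus on the arrays numbered 1 and RNA of female cells on the others, so the spread within each group includes a difference between animals. Whether replicates 2 and 3 came from separate animals is not stated in the labels. The results below are therefore also given without both replicate 1 arrays.

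Because many of these genes moved together, their promoters were searched for words of growth and cell cycle factors in windows from 250 bases before to 50 bases after each annotated start (RefSeq, GRCm38.p6). The 33 genes with an entry had 40 such windows, and Pfas, Dhodh and Rrm2b had none. The E-box CACGTG, a word bound by MYC with MAX, was in 6 of the 40 windows (15%) and in 7.15% of all 32851 windows of the table. It lay in windows of Atic and Dtymk and in both windows of Nme1, all genes that rose, and in those of Tyms and Paics, which did not pass the test. Counted by gene, the E-box was found for 3 of 18 that rose, 0 of 8 that fell and 2 of 7 not called. CCAAT was in 10 windows (25%), against 37.4% of all windows. The E2F words TTTCCCGC, TTTGGCGC, TTTCGCGC and TTTGCCGC were in 2 windows (5%, against 2.26%). These were the windows of Ppat, which rose, and of Prps2, which fell. The palindromic NRF1 word, given by name alone, was in 1 window (2.5%, against 0.971%), that of Ctps. Both strands were searched and overlaps were counted once. A word match is a description of these windows and not a bound site. The windows below are those with an E-box whose gene rose (for Nme1, 1 of its 2), and those of the neighbouring genes Ppat and Paics. Each runs 5′ to 3′ on the gene's strand, with capitals marking the words found.
Atic, chr1:71556906-71557205, plus strand: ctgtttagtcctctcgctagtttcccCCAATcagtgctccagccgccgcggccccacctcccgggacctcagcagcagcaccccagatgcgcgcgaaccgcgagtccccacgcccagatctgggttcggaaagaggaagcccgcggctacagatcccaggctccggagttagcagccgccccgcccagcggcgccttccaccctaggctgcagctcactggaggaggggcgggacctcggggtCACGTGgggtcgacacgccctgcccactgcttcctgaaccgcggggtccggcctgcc
Dtymk, chr1:93801885-93802184, minus strand: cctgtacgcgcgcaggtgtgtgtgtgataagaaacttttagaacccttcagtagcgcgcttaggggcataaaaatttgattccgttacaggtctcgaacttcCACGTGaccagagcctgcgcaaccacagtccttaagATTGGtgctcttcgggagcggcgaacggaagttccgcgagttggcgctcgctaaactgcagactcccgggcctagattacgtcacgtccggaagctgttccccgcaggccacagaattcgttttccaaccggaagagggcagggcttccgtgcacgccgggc
Nme1, chr11:93968223-93968522, minus strand: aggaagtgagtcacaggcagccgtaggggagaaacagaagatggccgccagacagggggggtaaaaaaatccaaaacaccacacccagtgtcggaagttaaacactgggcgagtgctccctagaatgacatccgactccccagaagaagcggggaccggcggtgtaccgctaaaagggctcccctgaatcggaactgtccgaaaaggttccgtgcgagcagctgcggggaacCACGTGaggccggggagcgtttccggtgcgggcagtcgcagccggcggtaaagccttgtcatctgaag
Ppat, chr5:76951529-76951828, minus strand: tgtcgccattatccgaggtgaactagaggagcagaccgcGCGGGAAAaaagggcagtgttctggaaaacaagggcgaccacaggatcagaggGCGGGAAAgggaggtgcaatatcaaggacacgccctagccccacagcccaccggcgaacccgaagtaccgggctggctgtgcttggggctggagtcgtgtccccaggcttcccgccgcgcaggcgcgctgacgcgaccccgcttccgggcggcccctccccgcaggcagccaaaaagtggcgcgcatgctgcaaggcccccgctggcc
Paics, chr5:76951052-76951351, plus strand: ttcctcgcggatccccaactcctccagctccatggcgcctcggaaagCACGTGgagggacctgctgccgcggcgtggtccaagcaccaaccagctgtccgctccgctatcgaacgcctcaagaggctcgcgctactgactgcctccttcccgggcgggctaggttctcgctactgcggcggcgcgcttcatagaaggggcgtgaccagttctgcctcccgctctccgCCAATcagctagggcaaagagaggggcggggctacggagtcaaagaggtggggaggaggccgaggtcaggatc

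Most genes of de novo purine and pyrimidine synthesis were higher after 3 h of anti-IgM. Of 6 deoxynucleotide genes 1 rose and 2 fell, near the shares of all genes tested given next, and salvage genes were divided. Of the 36 genes 20 rose, 9 fell and 7 did not pass the test (limma, Benjamini-Hochberg adjusted p under 0.05 over all 11843 genes). These are 55.6% higher and 25% lower, where 23.2% of all genes tested rose and 23.9% fell in the same fit (47.1% in either direction). That background includes dimmer genes. Of the 7978 genes as bright as the dimmest of the 36, 31.7% rose and 32.1% fell. The 25% that fell is near the 23.9% of all genes tested and below this 32.1%, so neither an excess nor a lack of falls is read from it. At least 2-fold changes were seen in 16 that rose and 7 that fell, where the shares over all genes were 9.38% and 10.5%. The median change of the 36 was 0.80, and that of all genes tested 0.02. The groups did not overlap in 30 of the 36 (83.3%), and in 54.8% of all genes tested. Without both replicate 1 arrays 21 rose and 10 fell, where 24.5% and 25.3% of all genes did (49.8% in either direction). With the replicate number as a block 21 rose and 11 fell, where 26.3% and 27.7% of all genes did (54%). When limma's treat asked for a log2 change beyond 0.5, 18 rose and 7 fell, where 11.3% and 12.2% of all genes did (23.4%).

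**Figure D1:**
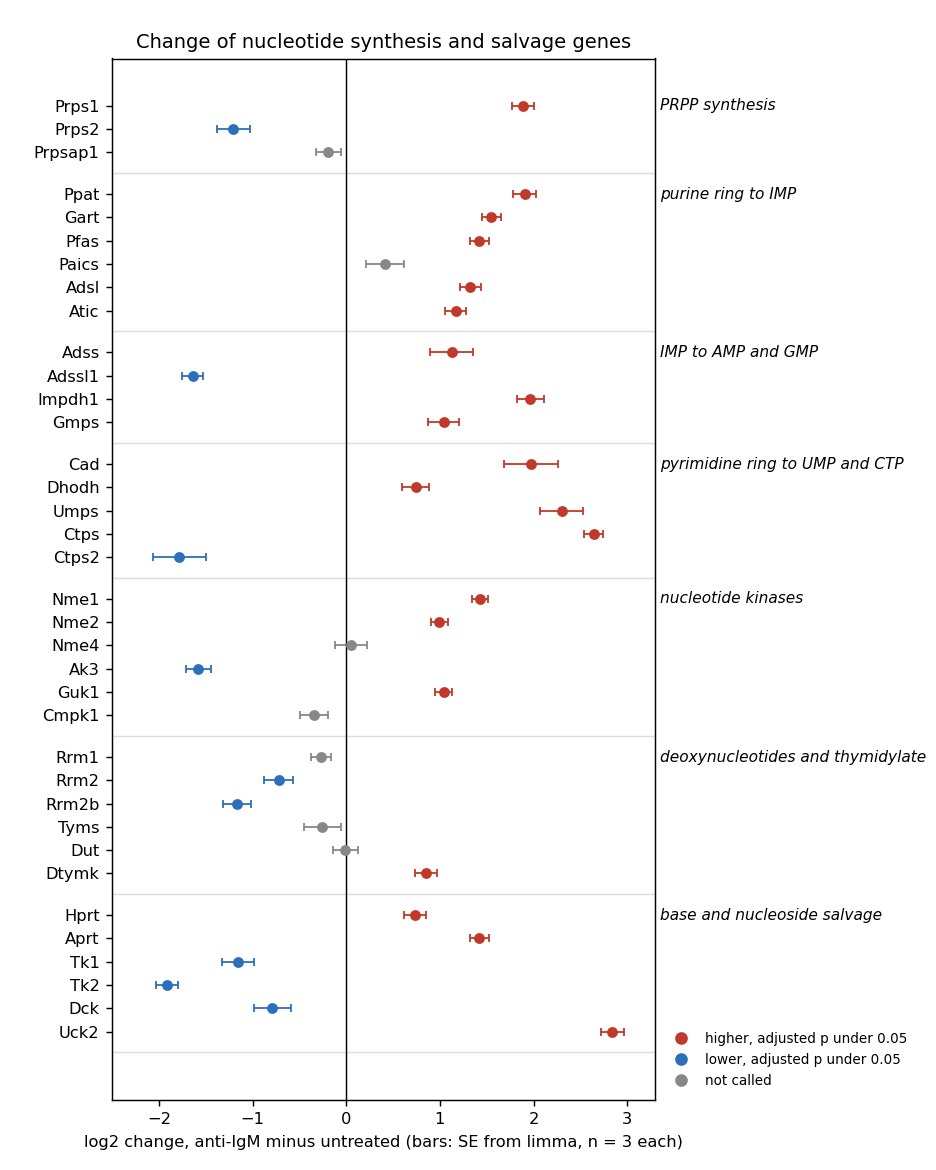
The log2 change (anti-IgM minus untreated, horizontal axis) of each of the 36 genes is shown as a point with its SE from limma (n = 3 each), by step of the pathway. Red points passed the test upward, blue points downward and grey points did not pass. Genes of the purine ring all lie right of 0, and those of deoxynucleotide synthesis lie mostly at or left of it, apart from Dtymk at 0.85.

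**Figure D2:**
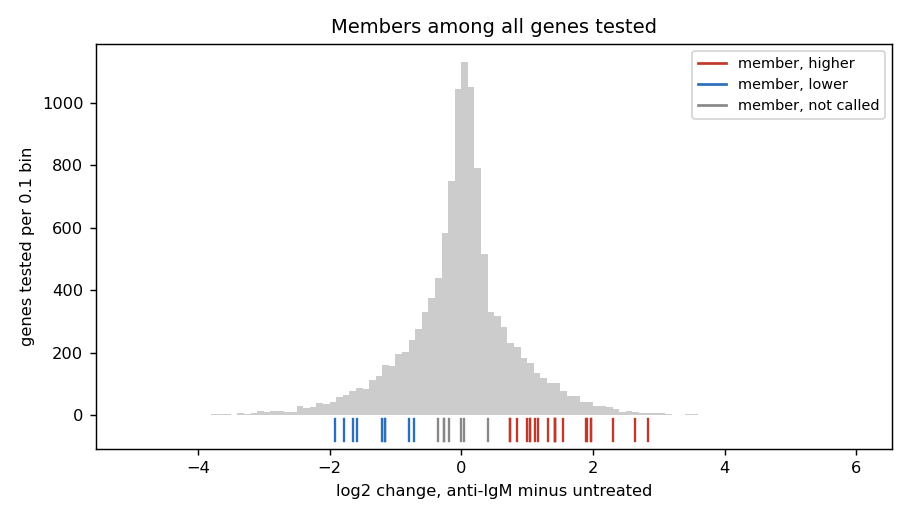
Grey bars count the genes tested in each 0.1-wide bin of log2 change (anti-IgM minus untreated), and the ticks under the axis mark the 36 genes in red (higher), blue (lower) and grey (not called). The ticks reach 2.84 for Uck2 at the upper end and −1.91 for Tk2 at the lower end, inside the range of all genes.

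PRPP, the activated ribose that every route uses, is made by PRPP synthetases, and the 2 isozyme genes on the X chromosome went opposite ways. Prps1 read 11.41, 11.44 and 11.63 in anti-IgM samples, against 9.63, 9.77 and 9.41 in untreated samples. It rose 3.71-fold (1.89 ± 0.12 SE; adjusted p = 5.06e-07). Prps2 read 7.36, 7.79 and 7.22 in anti-IgM samples, against 8.59, 8.84 and 8.57 in untreated samples, and was 2.31-fold lower (−1.21 ± 0.18; adjusted p = 0.00022). For neither gene did the groups overlap. Prpsap1, which encodes a regulatory partner of the synthetases, read between 8.45 and 8.62 with anti-IgM and between 8.57 and 8.85 without, and its change of −0.19 ± 0.13 did not pass (adjusted p = 0.28).

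Of the 6 genes that build the purine ring up to IMP, 5 rose at least 2-fold and none fell, with a median change of 1.37. At least 2-fold rises were seen in 9.38% of all genes tested, and 23.9% passed the test downward, whatever the size of the fall. Ppat, which encodes the amidotransferase of the committed step, read 10.17, 10.18 and 10.26 in anti-IgM samples, against 8.16, 8.26 and 8.47 in untreated samples. It had the largest change of the 6, a 3.75-fold rise (1.91 ± 0.12; adjusted p = 5.73e-07). Gart, an enzyme with several activities along the ring, read 11.52, 11.26 and 11.29, against 9.72, 9.86 and 9.83 in untreated samples, and rose 2.93-fold (1.55 ± 0.11). Pfas, the glutamine-dependent FGAM synthase, read 11.32, 11.13 and 11.30 with anti-IgM and 9.72, 9.81 and 9.94 in untreated samples, a change of 1.42 ± 0.10. In each of these the lowest anti-IgM sample lay more than 1 log2 unit above the highest untreated one. Adsl, a lyase that acts in the ring and again on the way to AMP, rose by 1.33 ± 0.12. Atic, which closes the ring, read 10.52, 10.43 and 10.39 with anti-IgM and 9.42, 9.14 and 9.27 in untreated samples (1.17 ± 0.11), and its window above holds an E-box with its first base at position −7 from the start.

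Paics, a carboxylase and SAICAR synthetase of the same route, was the exception. It is the next gene to Ppat in the RefSeq table, on the opposite strand, with annotated starts 276 bases apart. Its only probe was dim and read 6.94, 7.38 and 6.75 in anti-IgM samples, against 6.90, 6.56 and 6.37 in untreated samples, so the groups overlapped. The change of 0.41 ± 0.20 did not pass (adjusted p = 0.12). It passed with the replicate block (adjusted p = 0.035) and without both replicate 1 arrays (0.60; adjusted p = 0.022). In the pair of samples numbered 1 the difference was 0.04, and in pairs 2 and 3 it was 0.82 and 0.38.

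From IMP onward, both branches held genes that rose. Impdh1, an IMP dehydrogenase of the GMP branch, read 9.57, 9.42 and 9.16 in anti-IgM samples, against 7.44, 7.37 and 7.43 in untreated samples, a 3.91-fold rise (1.97 ± 0.15; adjusted p = 1.53e-06). Gmps, which turns XMP into GMP, read 8.38, 8.84 and 8.69 with anti-IgM and 7.48, 7.78 and 7.52 in untreated samples, and rose 2.06-fold (1.04 ± 0.17). Both genes measured on the GMP branch were thus higher, while Impdh2 of the same branch was not analysed here. On the AMP branch the 2 adenylosuccinate synthetase genes went opposite ways. Adss, the form of most tissues, read 10.21, 11.08 and 10.88 with anti-IgM and 9.18, 9.89 and 9.71 in untreated samples, and rose by 1.12 ± 0.23 (adjusted p = 0.0021). Its replicate 1 samples were the lowest of both groups, by 0.77 and 0.62 below the mean of the others in anti-IgM and untreated samples. Within the numbered pairs its rise was even, from 1.02 to 1.19. Adssl1, the form known from muscle, read 10.30, 10.28 and 10.28 in anti-IgM samples, against 12.06, 12.02 and 11.70 in untreated samples, and was 3.12-fold lower (−1.64 ± 0.11; adjusted p = 8.72e-07).

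All 4 genes of the line that leads from bicarbonate and glutamine to UMP and by Ctps to CTP rose, and the second CTP synthetase gene fell. Shares over all genes tested were 23.2% higher and 23.9% lower. Cad, whose product carries the first activities of the route, read 10.87, 9.72 and 9.77 in anti-IgM samples, against 8.45, 7.77 and 8.21 in untreated samples. Its rise of 3.92-fold (1.97 ± 0.29; adjusted p = 0.000202) had the widest error of the 36. Replicate 1 was the highest sample of both groups, and without both replicate 1 arrays the rise was 1.75 (adjusted p = 2.46e-09). Dhodh, the mitochondrial dehydrogenase that links the route to the respiratory chain, rose less, by 0.74 ± 0.14, with 9.50, 9.23 and 9.23 in anti-IgM samples and 8.51, 8.46 and 8.78 in untreated samples.

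Umps, which joins the ring to PRPP and yields UMP, read 10.54, 11.30 and 11.18 with anti-IgM and 8.24, 8.99 and 8.90 in untreated samples, a 4.92-fold rise (2.30 ± 0.23; adjusted p = 1.39e-05). Replicate 1 was the lowest sample of both groups, while the 3 numbered pairs differed by 2.30, 2.31 and 2.29. Ctps, a CTP synthetase, read 12.88, 12.67 and 12.69 in anti-IgM samples, against 10.10, 9.99 and 10.23 in untreated samples, and rose 6.25-fold (2.64 ± 0.10; adjusted p = 2.66e-08). This placed it at rank 58 of the 11843 changes, counted from the highest. Ctps2, an X-linked gene for the other CTP synthetase, read 7.40, 8.23 and 8.03 with anti-IgM and 9.02, 10.09 and 9.90 in untreated samples, and was 3.44-fold lower (−1.78 ± 0.28; adjusted p = 0.000383). Its replicate 1 samples were the lowest of both groups, and the change was −1.86 without them.

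Kinases that raise nucleoside monophosphates and diphosphates to triphosphates were mixed, with 3 of 6 higher and 1 lower. Among all genes tested 23.2% rose and 23.9% fell. Nme1 and Nme2 are neighbouring genes on chromosome 11 for similar nucleoside diphosphate kinases. Nme1 read 14.49, 14.60 and 14.53 in anti-IgM samples, against 13.14, 13.19 and 13.00 in untreated samples, and rose 2.69-fold (1.43 ± 0.09; adjusted p = 4.17e-07). Nme2 read 14.19, 14.44 and 14.30 in anti-IgM samples and 13.38, 13.22 and 13.34 in untreated samples, a 1.99-fold rise (0.99 ± 0.09). These anti-IgM levels lie at most 1.34 log2 units below the lowest array maximum, 15.52. Whether either transcript also binds the other's probe was not tested.

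Guk1, the guanylate kinase, read 12.30, 12.29 and 12.25 with anti-IgM and 11.11, 11.28 and 11.32 in untreated samples, a rise of 1.04 ± 0.09. Ak3, a mitochondrial adenylate kinase that uses GTP, read 7.60, 7.81 and 7.73 in anti-IgM samples, against 9.22, 9.40 and 9.26 in untreated samples, and was 2.99-fold lower (−1.58 ± 0.13; adjusted p = 3.63e-06). Cmpk1, which phosphorylates UMP and CMP, read 10.08, 10.19 and 10.53 with anti-IgM and 10.49, 10.88 and 10.47 in untreated samples. The groups overlapped and its change of −0.35 ± 0.15 did not pass (adjusted p = 0.083), although it did with the replicate block (adjusted p = 0.012). Nme4, a mitochondrial family member, was dim and changed by 0.05 ± 0.17.

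For deoxynucleotides, 1 of 6 genes rose, 2 fell and 3 did not pass, with a median change of −0.26. These counts are near the 23.2% of all genes tested that rose and the 23.9% that fell. Rrm1, the large subunit of ribonucleotide reductase, read 9.82, 9.71 and 9.78 in anti-IgM samples, against 9.90, 10.13 and 10.09 in untreated samples. The groups did not overlap, yet its change of −0.27 ± 0.11 missed the threshold (adjusted p = 0.065). It passed with the replicate block (adjusted p = 0.028) and without both replicate 1 arrays (−0.36; adjusted p = 0.010). Rrm2, the small subunit used in S phase, read 7.86, 7.69 and 7.82 with anti-IgM and 8.77, 8.35 and 8.40 in untreated samples, and was 1.65-fold lower (−0.72 ± 0.16; adjusted p = 0.0029). Rrm2b, the small subunit that also serves resting cells and is induced by DNA damage, read 8.30, 8.25 and 7.96 in anti-IgM samples, against 9.27, 9.54 and 9.19 in untreated samples (−1.16 ± 0.15; adjusted p = 8.49e-05).

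Neither of the enzymes that set the balance of thymidylate and uracil passed the test. Tyms, thymidylate synthase, read 8.40, 9.07 and 8.95 with anti-IgM and 8.74, 9.27 and 9.17 in untreated samples (−0.25 ± 0.20; adjusted p = 0.34). The samples numbered 1 were the lowest of both groups. Dut, which destroys dUTP, was dim in all samples, between 6.74 and 6.91 with anti-IgM and between 6.81 and 6.86 without (−0.01 ± 0.13; adjusted p = 0.96). Dtymk, the thymidylate kinase, was the gene that rose, at 10.48, 10.76 and 10.66 in anti-IgM samples, against 9.66, 9.90 and 9.79 in untreated samples (0.85 ± 0.11; adjusted p = 0.000114). Its window above holds an E-box at position −148 from the start.

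Proliferation genes were measured beside these. Of 18 replication licensing and S phase genes tested 5 rose and 3 fell, and of 7 mitosis genes 4 fell and none rose, where 23.2% of all genes tested rose and 23.9% fell. The S phase counts are near those shares, and fewer S phase genes were called when single samples were left out or treat was used. Pcna, the sliding clamp of DNA polymerase, rose by 1.23 ± 0.21 and the cyclin gene Ccne2 by 0.60 ± 0.18, while the DNA ligase gene Lig1 changed by −0.74 ± 0.19 and the licensing factor gene Cdc6 by −0.45 ± 0.16. Aurkb, a mitotic kinase, changed by −0.99 ± 0.13 and Top2a, a topoisomerase of dividing cells, by −0.71 ± 0.23. The part of cycling cells in the levels of Rrm2 and Tk1 was not tested. In whole-sample RNA, fewer cells that express a gene and less RNA per cell cannot be told apart.

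Salvage was divided, with 3 of 6 genes higher and 3 lower, and the groups did not overlap in any of the 6. Among all genes tested 23.2% rose, 23.9% fell and 54.8% had groups that did not overlap. Uck2, which phosphorylates uridine and cytidine, had the highest change of the 36. It read 12.53, 12.60 and 12.50 in anti-IgM samples, against 9.42, 9.80 and 9.88 in untreated samples, and rose 7.16-fold (2.84 ± 0.12; adjusted p = 5.31e-08), at rank 42 of all genes from the highest. Both enzymes that return purine bases to nucleotides rose. Aprt, for adenine, read 13.77, 13.67 and 13.54 with anti-IgM and 12.38, 12.21 and 12.12 in untreated samples (1.42 ± 0.10; adjusted p = 1.06e-06). Hprt, for hypoxanthine and guanine, read 12.47, 12.78 and 12.69 with anti-IgM and 11.90, 12.12 and 11.72 in untreated samples (0.73 ± 0.12; adjusted p = 0.000499).

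The kinases of deoxynucleosides fell. Tk2, the mitochondrial thymidine kinase, read 9.14, 8.98 and 9.33 in anti-IgM samples, against 11.02, 11.17 and 10.98 in untreated samples. It was 3.77-fold lower, the lowest change of the 36 (−1.91 ± 0.12; adjusted p = 4.89e-07). Tk1, the cytosolic thymidine kinase of S phase, read 7.74, 8.30 and 8.21 with anti-IgM and 9.10, 9.38 and 9.25 in untreated samples, and was 2.23-fold lower (−1.16 ± 0.17; adjusted p = 0.000197). Dck, the deoxycytidine kinase that lymphocytes need for salvage, read 7.01, 6.64 and 6.86 with anti-IgM and 7.87, 7.77 and 7.25 in untreated samples (−0.79 ± 0.19; adjusted p = 0.0062).

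Several steps are served by paired isozymes or subunits, and whether both partners changed alike was asked by the difference between their changes. There were 6 such pairs, and with 3 arrays against 3 the exact two-sided permutation test over arrays cannot go below p = 0.1 (0.12 adjusted over the pairs), which cannot pass the threshold. The difference was 4.43 ± 0.47 for Ctps minus Ctps2, 3.10 ± 0.23 for Prps1 minus Prps2 and 2.76 ± 0.39 for Adss minus Adssl1, each with an exact p = 0.1. In these 3 pairs the partners moved in opposite directions in every numbered pair of samples, which follows from groups that do not overlap. Nme1 minus Nme2 gave 0.43 ± 0.10 and Tk1 minus Tk2 gave 0.75 ± 0.22, each with an exact p = 0.1, and here both partners moved the same way. For Rrm2 minus Rrm2b the difference was 0.44 ± 0.24 (exact p = 0.2).

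**Figure D3:**
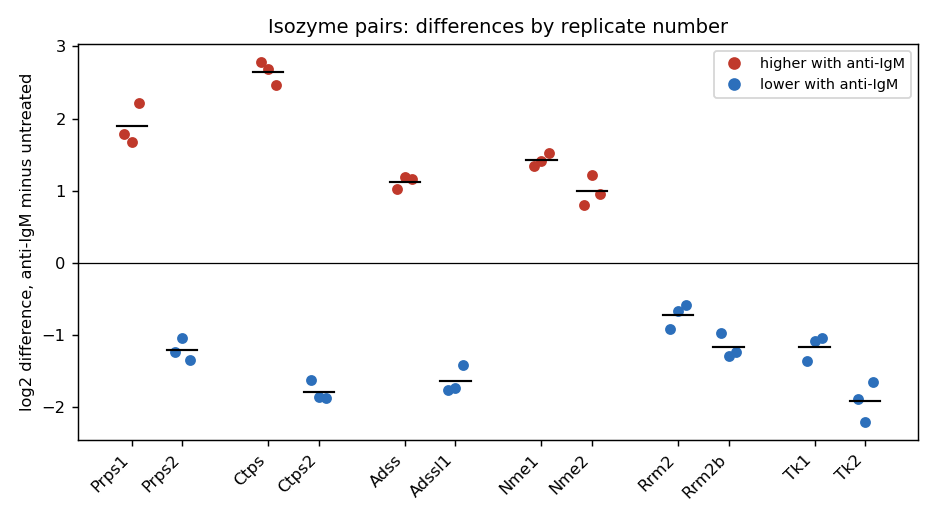
For each gene of the 6 isozyme or subunit pairs, the 3 points are the log2 differences of anti-IgM minus untreated samples with the same replicate number (1 to 3 from left to right), and the black line is their mean. Red genes rose and blue genes fell. Prps1, Ctps and Adss lie above 1 and their partners Prps2, Ctps2 and Adssl1 below −1.

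Other probes of the same genes gave a reading that the choice of the brightest probe had not used. The 36 genes had 48 further probes, of which 36 passed the filter, and 12 were too dim to be tested. Of the 29 tested ones that belong to genes called above, 23 were called the same way, 6 were not called and 0 the opposite way. These 29 belong to genes selected by their calls on the same samples, so agreement was likely beforehand and is no independent evidence. Over all 23505 probes tested, which were not so selected, 21.2% were called higher and 21% lower (42.2% in either direction). The further probes of Uck2 rose by 3.06 and 3.13, those of Ctps by 2.78 and 2.99, and that of Gart by 1.80, each more than at the brightest probe. Of the 23 probes 12 had a larger change than the brightest probe of their gene and 11 a smaller one. Dtymk had 0.42 and 0.38 at probes nearly as bright as the one above (mean log2 9.90 and 9.62, against 10.21), where the change was 0.85. Adssl1 gave −1.39 and −0.82, against −1.64 at its brightest probe. The changes at dimmer further probes were 0.62 for Ppat, 0.80 for Pfas, 1.47 and 1.18 for Impdh1 and −0.61 for Tk1, each smaller than at the brightest probe. For Umps the further probes gave 1.81, 1.27 and −0.08, the last at a mean log2 intensity of 6.54, near the array median of 6.19. The other 5 probes not called belong to Atic (−0.08), Adss (0.19), Dhodh (0.13), Nme2 (0.25) and Rrm2 (−0.42), at mean log2 intensities up to 7.13. For genes not called above, 0 of 7 further probes were called. Rrm1 gave −0.21 at a second probe almost as bright as the first.

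**Figure D4:**
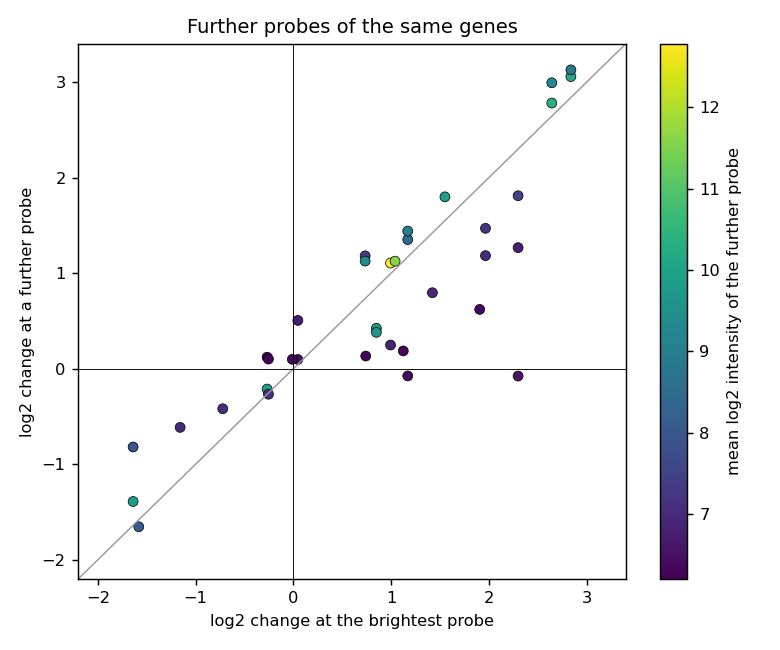
Each of the 36 points is a further probe that passed the filter, placed by the log2 change (anti-IgM minus untreated) at the brightest probe of its gene and at the further probe, with colour for its mean log2 intensity. The grey line marks equality. The Uck2 and Ctps probes lie above the line at the upper right, and the Umps probe at −0.08, with a mean log2 intensity of 6.54, lies far below it.

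Within groups the median SD over the 36 genes was 0.14 in anti-IgM and 0.15 in untreated samples. The widest were 0.65 for Cad in anti-IgM and 0.57 for Ctps2 in untreated samples. The groups did not overlap in any of the 29 genes called, which by itself gives the same sign in all 3 numbered pairs. Replicate 1 was the lowest sample of both groups in 10 genes and the highest of both in 8. Over all genes tested these shares were 18.1% and 23.3%. The largest such offsets were those of Cad, 1.12 above the other anti-IgM samples and 0.46 above the other untreated ones, and of Ctps2, 0.74 below the other anti-IgM samples and 0.97 below the other untreated ones.

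**Figure D5:**
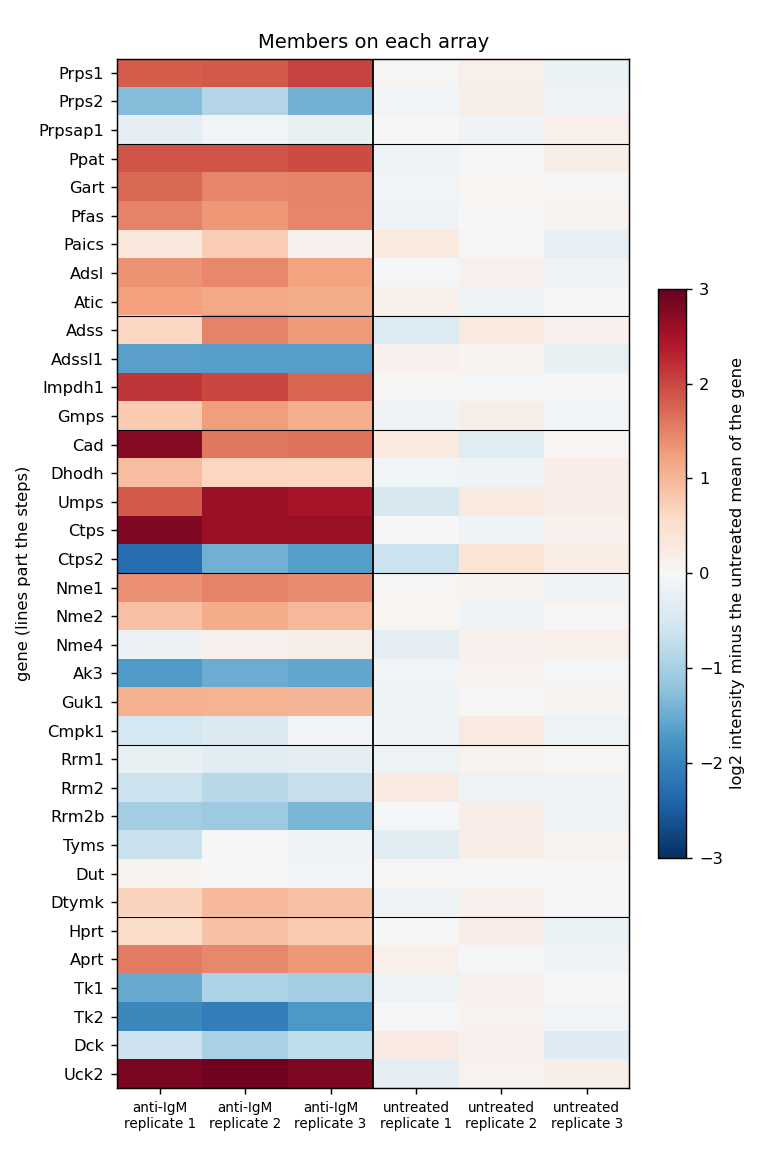
Rows are the 36 genes, parted by step, and columns the 3 anti-IgM and then the 3 untreated arrays. Colour is the log2 intensity minus the gene's untreated mean. Uck2, Ctps and Umps are dark red and Tk2, Ctps2 and Adssl1 blue in all anti-IgM samples, and the replicate 1 column is paler for Umps and Adss and darker for Cad.

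Genes that feed or drain the nucleotide pool were read from lists drawn from textbook knowledge, and each count stands against the 23.2% of all genes tested that rose and the 23.9% that fell. In the supply of one-carbon units for the purine ring and thymidylate 7 of 9 genes tested rose and none fell. Slc19a1, the reduced folate carrier, rose by 3.22 ± 0.11, and Shmt1, a serine hydroxymethyltransferase, by 2.56 ± 0.12. Among genes of the pentose phosphate route and of other ribose phosphate supply (Rbks and Pgm1), 3 of 8 rose and 4 fell. Tkt, transketolase, rose by 0.65 ± 0.09 and Rbks, ribokinase, by 0.49 ± 0.14, while Pgm1 changed by −1.37 ± 0.14 and the lactonase gene Pgls by −0.81 ± 0.09.

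Nucleoside transporters rose in 4 of 7 cases and fell in 1. Slc25a33, a mitochondrial carrier of pyrimidine nucleotides, rose by 3.01 ± 0.12, and Slc29a1, an equilibrative nucleoside transporter, by 1.69 ± 0.13. Slc28a2, a concentrative transporter of purine nucleosides, changed by −2.49 ± 0.20, with 2 of 3 anti-IgM samples under the array median. Of 22 genes of breakdown and interconversion 6 rose and 5 fell, shares near those over all genes. Samhd1, which degrades deoxynucleotide triphosphates, changed by −3.14 ± 0.13 and the AMP deaminase gene Ampd3 by −1.56 ± 0.20, and for Ampd3 too 2 of 3 anti-IgM samples were under that median. Dctd, which makes dUMP from dCMP, rose by 2.11 ± 0.15, and Mtap, which salvages adenine from the polyamine route, by 2.04 ± 0.11. Of 10 other kinases 3 rose and 3 fell, also near the shares over all genes. Cmpk2, a mitochondrial kinase induced by interferon, changed by −1.75 ± 0.17 and had 1 of 3 anti-IgM samples under it, and Dguok, the mitochondrial deoxyguanosine kinase, by −1.53 ± 0.14. Adk, adenosine kinase, rose by 0.65 ± 0.13 and Uck1, a relative of Uck2, by 0.36 ± 0.13.

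Markers of the labelled cells and of others they could hold were read in the same samples, where again 23.2% of all genes rose and 23.9% fell. B cell markers were bright, with list means per array between 9.56 and 9.90 in anti-IgM samples and between 11.01 and 11.37 in untreated samples, and 6 of 8 fell. For T cells 3 of 10 fell (list means 7.01 to 7.13 and 7.48 to 7.62). Among the defining genes, Cd3e and Cd3g were under the median of all 3 arrays with anti-IgM. Both were above it on all 3 untreated arrays and passed the filter only through that group. Cd5 and Cd8a did not pass the filter, and 7 of the 10 T cell markers tested were not called. The T cell content of either group was not tested. Macrophage markers fell in 2 of 8 cases (7.77 to 8.08 and 7.94 to 8.70) and neutrophil markers in 2 of 7 (6.84 to 7.11 and 7.04 to 7.58). Natural killer cell markers went up in 1 and down in 1 of 4 (8.08 to 8.24 and 7.89 to 8.17), and dendritic cell markers up in 2 and down in 2 of 5 (8.04 to 8.47 and 8.00 to 8.37). None of 5 erythroid markers passed (7.65 to 8.21 and 7.88 to 8.20). The part of such cells in the changes of the 36 genes was not tested.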

How the data were processed

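RNA of 3 anti-IgM and 3 untreated samples was read on 1-colour Illumina bead arrays. The authors deposited 1 intensity per probe, normalized between arrays, as found from the values: the medians of the 6 arrays differed by 0.0453%. The normalization is, in the sources used here, not given. A table of unnormalized signals has 6 columns whose names match no sample label, and was not used. Per the labels' protocols, Trizol and RNeasy columns gave the RNA, which was copied into biotinylated cRNA. The log2 of each intensity was used, with nothing further normalized. Of 45281 probes 34885 had 1 gene symbol, 18 several and 10378 were not listed. A gene was tested when its brightest probe was above the array median on at least 3 of 6 arrays. Groups were compared with limma 3.58.1 in R 4.3.3 (lmFit, eBayes with an intensity trend, group alone, two-sided), checked on simulated data, with Benjamini-Hochberg adjustment over 11843 genes. The groups share replicate numbers 1 to 3. Deviations from the group means correlated at 0.57, 0.24 and 0.29 for equal numbers, and untreated 2 with anti-IgM 3 gave 0.35. The values thus pair the samples numbered 1 and do not settle how those numbered 2 and 3 pair. Numbered pairs and the replicate block follow the labels' numbers, and the main fit did not use them. Promoter windows came from RefSeq. Python 3.11.15 and scipy 1.17.1 were used for exact tests. All 36 genes with a probe are named. Of each other list, the 2 largest rises and falls among called genes are named, with marker genes only where they bear on a list's identity. The genes, lists and tests were chosen with earlier results of these data known.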

Additional observations from a re-analysis of the deposited data

How the results depend on the processing

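The fit was repeated under 16 other settings. All 29 genes called kept their direction under each of them, and all but Dhodh, Rrm2, Hprt and Dck kept their call. Those 4 missed the threshold when limma's treat asked for more than a log2 change of 0.5 (adjusted p = 0.21, 0.31, 0.15 and 0.28). Under treat 18 genes rose and 7 fell, and the count over all genes was 2777. Also under treat, 7 genes of breakdown and interconversion, 3 other kinases, 2 genes of ribose phosphate supply, 1 S phase and 1 mitosis gene were called. With every probe tested on its own 9919 probes were called, since more features are counted, and with no filter on dim probes 5 S phase genes. The replicate block raised the count over all genes to 6398, with 5579 without it, and added Paics, Cmpk1 and Rrm1 to those called. The block gave 32 called genes among the 36 in place of 29, and it took away none. Leaving out single samples gave 20 to 21 genes higher and 9 to 10 lower, 4959 to 5515 over all genes, 4 to 6 S phase genes, and 21 to 24 further probes called the same way. The main fit had called 5 S phase genes higher and 3 lower. Fits without 1 sample, under treat or with no filter on dim probes all called fewer of them. Cmpk1 passed without anti-IgM replicate 3 (−0.48; adjusted p = 0.028), and Paics and Rrm1 without untreated replicate 1 (adjusted p = 0.044 and 0.029). The differences between isozyme changes kept their sign throughout. Where a call was gained, the cause was not tested. Background that was not subtracted limits dim genes: with it subtracted the changes of Paics, Dck and Prps2 were 0.56, −0.98 and −1.37. The 3 arrays per group leave the isozyme tests unable to reach the threshold.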
